A study of Mus musculus with 6 samples.

Results

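Lgr5, Ascl2, Olfm4, Smoc2, Cdca7, Rgmb, Tnfrsf19, Msi1, Prom1 and Hopx are 10 genes used as markers of the crypt base columnar stem cells of the mouse intestine. They were taken by name from a table of 24736 gene symbols, and all 10 were found in it. All 10 were also among the 12268 genes whose mean over the libraries reached 1 TPM, which were the genes tested. TPM divides the reads of a gene by its length and scales each library to the same total, so that levels can be compared between genes.

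Crypt base columnar cells lie between Paneth cells at the bottom of the crypt and renew the whole epithelium. They are kept by Wnt signals, which R-spondins amplify through LGR5 and its relatives, and by Notch signals from neighbouring cells. Daughters that leave the crypt base enter the absorptive or the secretory lineage, and Notch activity favours the absorptive one. MTG16 is a transcriptional co-repressor, encoded by Cbfa2t3, that brings chromatin-modifying enzymes to genes, and the comparison asks how the stem cell markers stand in crypts from mice without it.

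Crypt epithelium from the full length of the gut was released in cold PBS with 2 mM EDTA for 30 minutes. The WT group was 3 untreated wild-type male mice and the Mtg16-/- group was 3 male mice labelled Mtg16 KO, all 12 weeks old, with 1 RNA-seq library per mouse. The labels call the knockout CRISPR induced, the study's methods describe donated Mtg16-/- mice with no Cre, and the strain is not given in the sources used here. The loss of MTG16 is therefore not restricted to the epithelium by the described design. The depth of the libraries is unknown, because TPM keeps no read number. The TPM of the targeted gene did not separate the labels, so each direction below rests on the labels. Cbfa2t3 had 3.67, 6.69 and 4.52 TPM in WT and 4.62, 6.43 and 3.23 TPM in the libraries labelled Mtg16-/-. A gene-level TPM does not show whether the transcript is intact, so these values do not tell whether MTG16 was absent. Epithelial markers (Epcam, Cdh1, Krt8, Krt18, Krt19, Cldn7 and Vil1) summed to between 9575 and 11022 TPM in the 6 libraries. Most of each sum was Krt8 and Krt19. Of the 7 markers, 3 had a higher and 4 a lower mean in Mtg16-/-. Vil1 moved most, from 1857 TPM in WT replicate 1 to 543 TPM in Mtg16-/- replicate 3. A list of 9 stromal and endothelial markers summed to between 12.2 and 20.8 TPM, most of it Vim. A list of 7 immune markers summed to between 80.8 and 369.5 TPM, most of it Gzma, and was highest in WT replicate 1.

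The promoters of members show which regulatory letters lie at their starts. RefSeq windows of 300 bases (GRCm38.p6, 250 before and 50 after the start) were matched by symbol for 7 members, in 12 windows, and Lgr5, Smoc2 and Msi1 had no entry. The windows shown are those of Olfm4 and of the first listed starts of Tnfrsf19 and Hopx, whose levels did not overlap between the groups, and of Ascl2, itself a factor that binds E-boxes. They lie at chr14:80000052-80000351 on the plus strand for Olfm4 and, on the minus strand, at chr14:61046806-61047105 for Tnfrsf19, chr5:77115074-77115373 for Hopx and chr7:142969215-142969514 for Ascl2. Each is written 5′ to 3′, and capitals mark matches on either strand to the E-box CANNTG, to the TCF/LEF cores CTTTGA and CTTTGT, and to the RBPJ core TGGGAA.
Olfm4: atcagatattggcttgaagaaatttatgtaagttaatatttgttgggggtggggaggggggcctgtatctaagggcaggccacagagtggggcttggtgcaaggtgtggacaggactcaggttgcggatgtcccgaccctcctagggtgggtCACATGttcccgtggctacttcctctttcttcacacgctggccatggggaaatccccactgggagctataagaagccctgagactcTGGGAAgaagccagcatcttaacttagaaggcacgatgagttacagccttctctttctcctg
Tnfrsf19: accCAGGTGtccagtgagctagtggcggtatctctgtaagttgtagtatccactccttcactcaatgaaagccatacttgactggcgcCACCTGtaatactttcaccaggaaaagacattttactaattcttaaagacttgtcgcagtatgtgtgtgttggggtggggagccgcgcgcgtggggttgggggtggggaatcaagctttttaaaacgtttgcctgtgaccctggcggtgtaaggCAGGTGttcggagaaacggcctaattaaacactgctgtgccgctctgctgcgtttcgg
Hopx: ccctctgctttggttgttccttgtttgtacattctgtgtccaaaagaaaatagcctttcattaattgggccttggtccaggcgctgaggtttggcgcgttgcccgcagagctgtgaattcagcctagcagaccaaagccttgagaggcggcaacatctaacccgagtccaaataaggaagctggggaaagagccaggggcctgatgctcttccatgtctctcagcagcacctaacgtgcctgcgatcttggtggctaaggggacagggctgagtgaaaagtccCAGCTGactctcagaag
Ascl2: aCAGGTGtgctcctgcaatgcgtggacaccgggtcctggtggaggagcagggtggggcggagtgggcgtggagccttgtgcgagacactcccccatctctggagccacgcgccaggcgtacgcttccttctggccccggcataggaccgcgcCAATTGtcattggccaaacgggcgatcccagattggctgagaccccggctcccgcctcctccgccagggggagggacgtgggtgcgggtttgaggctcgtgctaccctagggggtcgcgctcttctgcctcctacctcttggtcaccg

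In the Olfm4 window the RBPJ core begins at position -12 and an E-box at -98, counted from the start site. In the Tnfrsf19 window 3 E-boxes begin at -247, -162 and -8. The Hopx window has 1 E-box, CAGCTG, beginning at position 34, and the Ascl2 window has 2, the nearer at -98. None of these is a rare feature: CANNTG is in 72.3% of the 32851 windows of the genome and in 8 of the 12 windows of members (66.7%). A TCF/LEF core is in 31.2% of all windows and in 3 of the 12, and TGGGAA in 25.6% of all and in 3 of the 12. CAGCTG, which is also a CANNTG match, is in 16.3% of all and in 2 of the 12. A match describes the letters of a window and does not show binding.

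No stem cell marker passed the test between the genotypes (limma on log2(TPM + 1), adjusted p under 0.1 over all 12268 genes), which 4 of the tested genes, 0.0326%, did. The adjusted p of the 10 markers lay between 0.266 and 0.890. At an unadjusted p under 0.05 limma gave 4 of the 10, Lgr5, Hopx, Olfm4 and Tnfrsf19, against 1789 of all tested genes (14.6%). The same 4 genes did not overlap between the groups, with each Mtg16-/- library above each WT library. This was the case for 9.94% of the tested genes. The mean was higher in Mtg16-/- for 9 of the 10 markers and lower for Msi1, where 46.4% of all tested genes had a higher mean. The median difference was 0.39 on the log2(TPM + 1) scale for the 10 markers and -0.03 for all tested genes. When limma weighted the libraries by their scatter, 3 of the 10 (Lgr5, Hopx and Tnfrsf19) were called, but so were 855 of all tested genes, 6.97%. With the replicate number as a block, 4 of the 10 (Lgr5, Olfm4, Hopx and Cdca7) were called, but so were 1201 of the 12268 tested genes. The labels name no such pairing. The cell number behind these values was not measured, and in bulk RNA more or fewer cells of a type and more or less RNA per cell cannot be told apart.

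**Figure D1:**
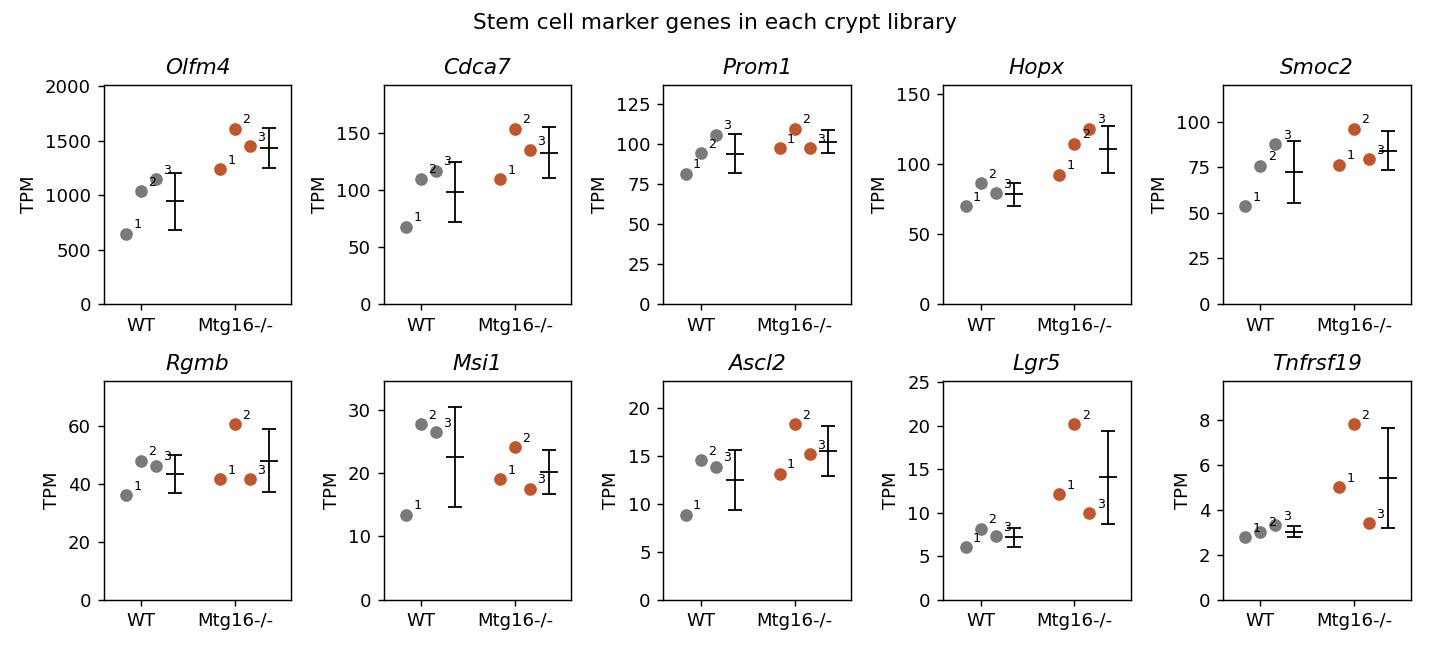
TPM of each stem cell marker (y axis, from 0) in the 3 WT (grey) and 3 Mtg16-/- (orange) libraries, with replicate numbers beside the points and the mean ± SD to their right. In Lgr5, Olfm4, Tnfrsf19 and Hopx the groups do not overlap, and WT replicate 1 is the lowest point in all 10 panels.

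Among the receptors at the cell surface, Lgr5 and Tnfrsf19 had the largest ratios of group means. Lgr5 (chromosome 10, 115450314 to 115587780) encodes the R-spondin receptor that defines these stem cells and is itself a Wnt target. It had 6.02, 8.16 and 7.33 TPM in WT and 12.1, 20.2 and 9.94 TPM in Mtg16-/-. All Mtg16-/- libraries were above all WT libraries, with replicate 2 far above the other two. The ratio of the means was 1.96, and the difference was 0.83 on the log2(TPM + 1) scale (95% interval 0.26 to 1.41, limma adjusted p = 0.266). Without Mtg16-/- replicate 2 the difference was 0.56, and without WT replicate 1 it was 0.73.

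Tnfrsf19 (chromosome 14, 60963834 to 61046855), or Troy, encodes a receptor of the tumor necrosis factor family that is a Wnt target and associates with LGR5. It had 2.77, 3.02 and 3.30 TPM in WT and 4.99, 7.79 and 3.41 TPM in Mtg16-/-. The groups did not overlap, but Mtg16-/- replicate 3 was only just above WT replicate 3. The ratio of the means was 1.78 and the difference 0.61 (95% interval 0.01 to 1.21, limma adjusted p = 0.336). This is the lowest level among the markers, and with a pseudocount of 0.1 in place of 1 the difference was 0.74. Without Mtg16-/- replicate 2 it was 0.35.

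Rgmb (chromosome 17, 15804661 to 15831246), a co-receptor of the BMP pathway, had 35.95, 47.9 and 46.2 TPM in WT and 41.7, 60.5 and 41.6 TPM in Mtg16-/-. The groups overlapped, and 2 of the Mtg16-/- libraries lay below 2 of the WT libraries. The difference was 0.13 (95% interval -0.30 to 0.56, limma adjusted p = 0.759), and it was -0.046 without Mtg16-/- replicate 2. Prom1 (chromosome 5, 43993621 to 44102047), a membrane glycoprotein found on stem cells and on other crypt cells, had 81.6, 94.2 and 106.0 TPM in WT and 97.3, 109.6 and 97.3 TPM in Mtg16-/-. Its groups also overlapped, with WT replicate 3 the second highest library. The difference was 0.12 (95% interval -0.19 to 0.43, limma adjusted p = 0.698), the narrowest interval among the 10.

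Of the nuclear proteins, Hopx separated the groups, while Ascl2 and Cdca7 did not. Hopx (chromosome 5, 77086986 to 77115123) encodes a small homeodomain protein that does not bind DNA itself and is known both from the +4 position above the Paneth cells and from LGR5-positive cells. It had 70.0, 86.3 and 79.0 TPM in WT and 92.3, 114.6 and 125.3 TPM in Mtg16-/-. No library overlapped, and Hopx was the only non-overlapping marker with its highest value in Mtg16-/- replicate 3. The ratio of the means was 1.41 and the difference 0.49 (95% interval 0.14 to 0.83, limma adjusted p = 0.272). Across the 6 omissions of 1 library it stayed between 0.39 and 0.61.

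Ascl2 (chromosome 7, 142966822 to 142969264) encodes the basic helix-loop-helix factor that controls the stem cell program together with Wnt signaling. It had 8.86, 14.6 and 13.9 TPM in WT and 13.1, 18.3 and 15.2 TPM in Mtg16-/-. WT replicate 1 stood apart from the other 5 libraries, and WT replicates 2 and 3 were above Mtg16-/- replicate 1. The difference was 0.32 (95% interval -0.17 to 0.80, limma adjusted p = 0.501), and it was 0.11 without WT replicate 1. Cdca7 (chromosome 2, 72476187 to 72486892), a MYC-responsive zinc finger protein that works with a chromatin remodeler, had 67.7, 109.7 and 117.1 TPM in WT and 109.3, 153.8 and 134.9 TPM in Mtg16-/-. The lowest Mtg16-/- library was level with WT replicate 2, so the groups overlapped. The difference was 0.46 (95% interval -0.07 to 0.98, limma adjusted p = 0.389), and without WT replicate 1 it was 0.21.

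Both secreted markers had higher means in Mtg16-/-, but only Olfm4 separated the groups. Olfm4 (chromosome 14, 80000302 to 80023141) encodes a secreted glycoprotein whose expression in these cells depends on Notch. It had 647, 1035 and 1147 TPM in WT and 1239, 1611 and 1448 TPM in Mtg16-/-. The lowest Mtg16-/- library was above the highest WT library, by a smaller margin than the gap between WT replicates 1 and 2. The ratio of the means was 1.52 and the difference 0.64 (95% interval 0.08 to 1.19, limma adjusted p = 0.309), and without WT replicate 1 it was 0.39. Smoc2 (chromosome 17, 14279490 to 14404790), a calcium-binding matrix protein, had 53.7, 75.8 and 87.7 TPM in WT and 76.4, 96.1 and 79.5 TPM in Mtg16-/-. WT replicate 3 was above both Mtg16-/- replicates 1 and 3. The difference was 0.23 (95% interval -0.21 to 0.68, limma adjusted p = 0.575), and it was 0.036 without WT replicate 1.

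Msi1 (chromosome 5, 115359059 to 115455698) encodes an RNA-binding protein that controls translation in stem and progenitor cells. It was the marker with a lower mean in Mtg16-/-. It had 13.4, 27.7 and 26.5 TPM in WT and 19.1, 24.1 and 17.5 TPM in Mtg16-/-. WT held both the lowest and the highest library. The difference was -0.10 (95% interval -0.72 to 0.53, limma adjusted p = 0.890), the widest interval of the 10. Its sign was not stable: the difference was -0.42 without WT replicate 1, 0.080 without WT replicate 2 and 0.049 without WT replicate 3.

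**Figure D2:**
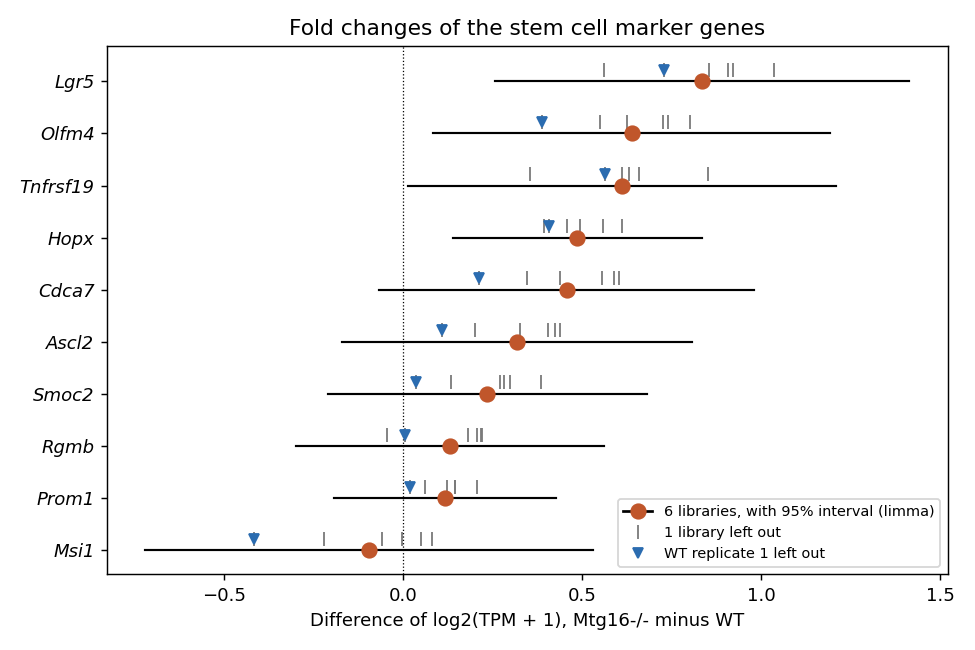
Difference of log2(TPM + 1) between Mtg16-/- and WT (x axis) for each marker, as the limma estimate from 6 libraries with its 95% interval. Grey ticks and blue triangles above each line give the estimate with 1 library left out, and the triangle is the one without WT replicate 1, which is the lowest for Olfm4, Cdca7, Ascl2, Smoc2, Prom1 and Msi1.

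The lowest library was the same across the 10 markers and the highest mostly so, while the order of the others differed between markers. WT replicate 1 was the lowest of the 6 libraries for all 10 markers, and for 26.4% of all tested genes. Mtg16-/- replicate 2 was the highest for 8 of the 10, the exceptions being Hopx and Msi1, and for 20.3% of all tested genes. Both held for 8 of the 10 markers and for 8.09% of tested genes. The summed TPM of the 10 was 986, 1502 and 1634 in WT and 1705, 2216 and 1973 in Mtg16-/-. Olfm4 made up between 65.6% and 73.4% of each sum, so the sum is mostly Olfm4. Without WT replicate 1 the median difference of the 10 fell from 0.39 to 0.16, and it was 0.27 without Mtg16-/- replicate 2.

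**Figure D3:**
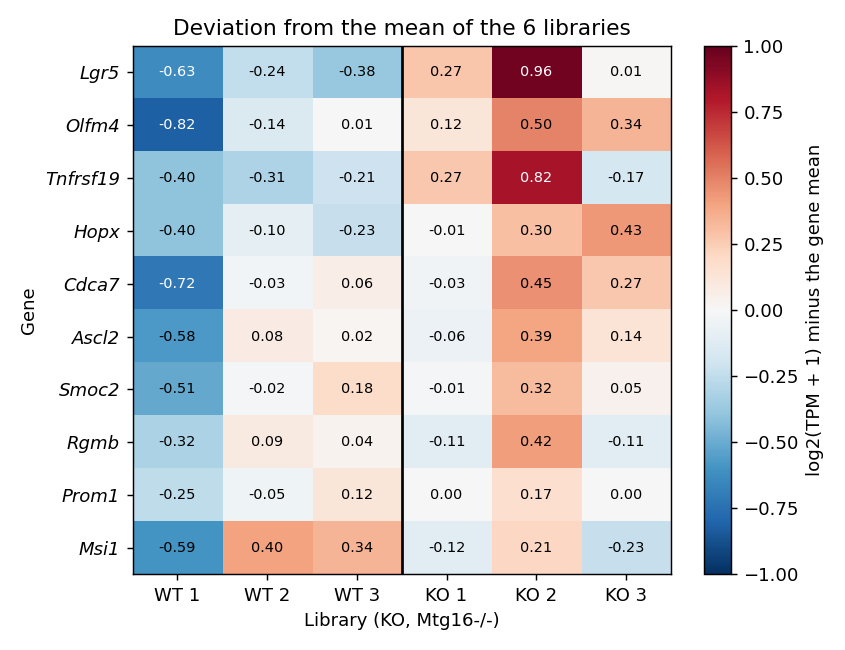
Deviation of log2(TPM + 1) from the mean of each marker over the 6 libraries (colour and printed value; blue below, red above), with markers in rows and libraries in columns. WT 1 is negative in every row, from -0.25 for Prom1 to -0.82 for Olfm4, and KO 2 is positive in every row.

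Markers of other cells also had different levels in these libraries. The 10 enterocyte markers (among them Alpi, Apoa4 and Fabp1) summed to 35069, 11968 and 14856 TPM in WT and to 12125, 6691 and 6145 TPM in Mtg16-/-. WT replicate 1, lowest in every stem cell marker, was highest in all 10 enterocyte markers. The 10 Paneth cell markers summed to 9261, 20180 and 12416 TPM in WT and 30490, 24697 and 25540 TPM in Mtg16-/-, and WT replicate 1 was the lowest library for all 10. The 10 proliferation genes (such as Mki67, Top2a and Pcna) summed to 765, 1064 and 1053 TPM in WT and 890, 1075 and 1104 TPM in Mtg16-/-, with overlapping groups. None of these genes was at 0 in any library. Of the 10 enterocyte markers 7 had a limma unadjusted p under 0.05 (14.6% of all tested genes did), all lower in Mtg16-/-. Of the 10 Paneth markers 8 did, all higher. None of the 20 was called. The 8 enteroendocrine markers (such as Chga and Neurod1) summed to 299, 271 and 241 TPM in WT and 403, 395 and 426 TPM in Mtg16-/-, and all 8 had a higher mean in Mtg16-/-, 6 of them with a limma unadjusted p under 0.05. The 6 tuft cell markers summed to between 50.3 and 103 TPM in WT and between 39.8 and 51.3 TPM in Mtg16-/-, with overlap, and all 6 had a lower mean. For 1 of them the limma unadjusted p was under 0.05, a share near the 14.6% of all tested genes. The 6 genes of the proximal small intestine, among them Gata4, Pdx1 and Onecut2, summed to between 1755 and 5222 TPM in WT and between 506 and 1096 TPM in Mtg16-/-. Most of each sum was Fabp1, which this list shares with the enterocyte markers. Fabp1 had 5065, 1642 and 2061 TPM in WT and 996, 411 and 660 TPM in Mtg16-/-. All 6 genes had a lower mean in Mtg16-/-, 4 (Fabp1, Gata4, Pdx1 and Onecut2) with a limma unadjusted p under 0.05. For Cybrd1 and Slc40a1 the groups overlapped, with differences of -0.19 and -0.072. None of these 20 genes was called either. The 4 ileum genes summed to 1260, 2026 and 803 TPM in WT and to 2180, 1986 and 962 TPM in Mtg16-/-. The groups overlapped, and replicate 3 was the lowest in both. The 7 goblet cell markers summed to between 6158 and 10809 TPM in WT and between 5010 and 7472 TPM in Mtg16-/-, with overlap. The mean was higher in Mtg16-/- for 3 of the 4 ileum genes and lower for 5 of the 7 goblet cell markers. No gene of these lists was called. The part of cell composition and of gut region in the values of the stem cell markers was not tested. Without WT replicate 1 the differences of the 10 markers were 0.73 for Lgr5, 0.56 for Tnfrsf19, 0.41 for Hopx, 0.39 for Olfm4, 0.21 for Cdca7, 0.11 for Ascl2, 0.036 for Smoc2, 0.019 for Prom1, 0.0032 for Rgmb and -0.42 for Msi1.

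**Figure D4:**
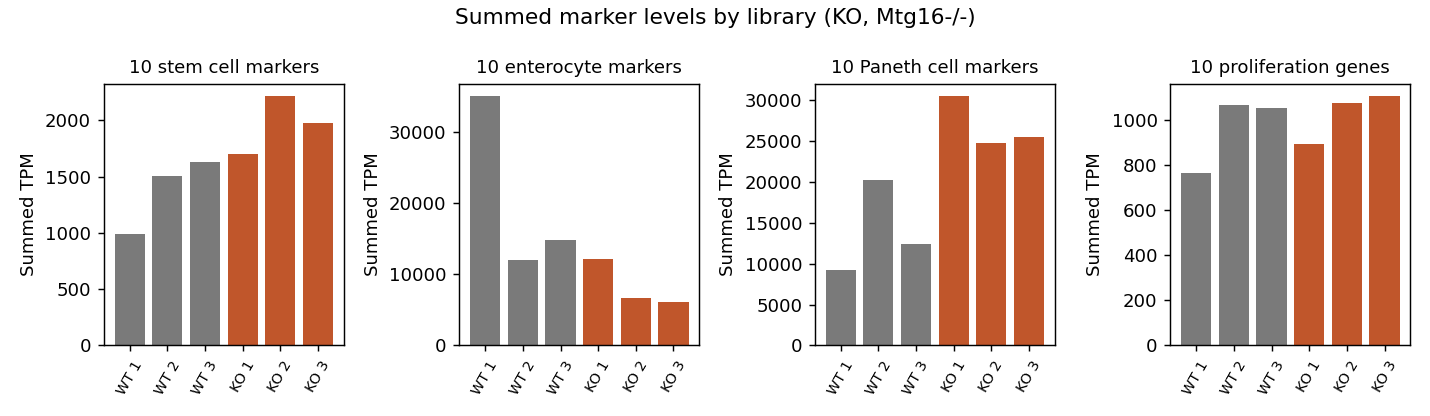
Summed TPM (y axis, from 0) of 4 lists of 10 genes in each WT (grey) and Mtg16-/- (orange) library. WT 1 has the lowest bar for stem cell, Paneth cell and proliferation genes and the highest for enterocyte markers.

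The levels of the markers spanned a wide range. In WT the means were 943 TPM for Olfm4, 98.2 for Cdca7, 93.9 for Prom1, 78.4 for Hopx, 72.4 for Smoc2, 43.4 for Rgmb, 22.5 for Msi1, 12.5 for Ascl2, 7.17 for Lgr5 and 3.03 for Tnfrsf19. Olfm4 was above 98.7% of the tested genes and Lgr5 above 23.7%. The WT ranges of Cdca7 and Prom1, of Prom1 and Hopx, of Hopx and Smoc2, and of Msi1 and Ascl2 overlapped. Within single libraries Msi1 was nevertheless above Ascl2 in all 6, and Prom1 above Hopx in all 3 of WT. Olfm4 stood 9.60-fold above Cdca7, and Smoc2 above Rgmb, Rgmb above Msi1 and Lgr5 above Tnfrsf19 without overlap in either genotype. Ascl2 was above Lgr5 in every WT library, and in Mtg16-/- replicate 2 Lgr5 was the higher of these.

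Ratios between markers within a library do not depend on how the library is scaled. They are given as a description, because the values of the markers had been seen when 8 ratios were chosen, and 5 of these did not overlap between the groups. An exact permutation test of each gave p from 0.1 to 0.4 (0.16 to 0.4 after Benjamini-Hochberg adjustment over the 8). With so few libraries its p cannot go below 0.1, so it shows only whether the groups overlap. All 5 separated ratios set Lgr5 or Olfm4 over Prom1, Smoc2 or Msi1, markers with smaller differences. Their separation follows in part from that choice and adds no evidence beyond the single markers. The share of other gene pairs that separate was not computed. Lgr5 per Prom1 was 0.0738, 0.0866 and 0.0692 in WT and 0.124, 0.184 and 0.102 in Mtg16-/-. Olfm4 per Prom1 was 7.93, 10.98 and 10.8 in WT and 12.7, 14.7 and 14.9 in Mtg16-/-. Both ratios were higher in each Mtg16-/- library than in any WT library, as were Lgr5 per Smoc2, Lgr5 per Msi1 and Olfm4 per Msi1. Lgr5 per Olfm4 was 0.00931, 0.00789 and 0.00639 in WT and 0.00978, 0.0125 and 0.00686 in Mtg16-/-, and overlapped. Tnfrsf19 per Lgr5 lay between 0.343 and 0.460 in all 6 libraries.

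The markers fell into patterns that were alike in part. Over the 6 libraries, Pearson's r of log2(TPM + 1) was above 0 in all 45 pairs of markers, with a median of 0.76, from 0.14 for Msi1 with Hopx to 0.99 for Smoc2 with Prom1. After the mean of each genotype was subtracted the median was 0.80, so the likeness was also there within the groups. These are descriptions over 6 libraries that share WT replicate 1 as a low point, with no test. Lgr5 was most like Tnfrsf19 among the markers (r = 0.97, or 0.86 without the 2 libraries farthest from the median of Lgr5). It had an r of at least 0.9 with no other marker and with 165 of all other tested genes (1.35%). Ascl2 reached 0.9 with Olfm4, Smoc2 and Cdca7, and with 422 tested genes (3.44%). Olfm4 reached it with Ascl2, Smoc2 and Cdca7, and with 623 tested genes (5.08%). The r was also taken without the 2 libraries farthest from the median of the first gene named. It was then 0.28 for Ascl2 with Olfm4, -0.018 for Ascl2 with Smoc2 and 0.047 for Olfm4 with Smoc2. For Ascl2 with Cdca7 it was 0.72, and for Olfm4 with Cdca7 it was 0.81. Over all 45 pairs this r ranged from -0.92 for Olfm4 with Msi1 to 0.98 for Rgmb with Msi1, and it was negative for many. Leaving out the extremes narrows the range, which can lower r by itself, so these values do not show what the positive r rested on. Spearman's rho, which uses only ranks, was 0.77 for Ascl2 with Olfm4 over the 6 libraries. It was 0.71 for Ascl2 with Smoc2 and 0.83 for Olfm4 with Smoc2. Over all 45 pairs rho ranged from -0.029 for Msi1 with Hopx to 0.94 for pairs such as Lgr5 with Tnfrsf19. The tested genes most like Lgr5 were Cep44 (r = 0.98), Syn3 (0.98) and Extl2 (0.98). Those most like Ascl2 were Inpp5f (0.996), Erdr1 (0.99) and Saal1 (0.99), and those most like Olfm4 were Arl14ep (0.997), Acss2 (0.99) and Pkp1 (0.99).

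Of 16 genes related in sequence to the markers, 12 were below a mean of 1 TPM and were not tested. The other 4, Lgr4, Msi2, Cdca7l and Olfm1, had higher means in Mtg16-/-, with a median difference of 0.52. The groups did not overlap for 3 of them, with Mtg16-/- higher, as for 9.94% of all tested genes. None was called. Lgr4 (chromosome 2, 109917647 to 110014257), the R-spondin receptor expressed throughout the crypt, had 61.2, 61.9 and 67.4 TPM in WT and 90.0, 100.8 and 97.4 TPM in Mtg16-/-. The groups were well apart, at a level above that of Lgr5 in every library. The difference was 0.59 (95% interval 0.33 to 0.85, limma adjusted p = 0.170). Lgr6, the third receptor of this family, was listed at 0 in all 6 libraries. Msi2 had 19.5, 21.2 and 24.8 TPM in WT and 24.9, 33.8 and 32.4 TPM in Mtg16-/-, without overlap, while those of Msi1 overlapped. The difference was 0.45 for Msi2 (95% interval 0.08 to 0.82, limma adjusted p = 0.292) and -0.10 for Msi1, and the difference between the 2 was not tested. Cdca7l had a difference of 0.61 (95% interval -0.0039 to 1.23, limma adjusted p = 0.345), beside 0.46 for Cdca7.

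Other genes of the stem cell signature, a list of 19 that includes Slc14a1, Scn2b, Cdk6, Mex3a and Slc12a2, were all tested and none was called in either direction. The mean was higher in Mtg16-/- for 18 of the 19, with a median difference of 0.18, 5 had a limma unadjusted p under 0.05 (14.6% of all tested genes did), and 5 did not overlap between the groups, with Mtg16-/- higher (9.94% of all). Both counts of 5 include Fstl1, which had a mean of 0.84 TPM in WT and 1.83 TPM in Mtg16-/-. It reached the filter of 1 TPM only through the Mtg16-/- libraries, so it is no independent support. WT replicate 1 was the lowest library for 13 of the 19 (26.4% of all). Slc12a2, a sodium, potassium and chloride cotransporter, had 78.3, 116.8 and 123.8 TPM in WT and 142.4, 222.0 and 154.7 TPM in Mtg16-/-. The groups were apart and replicate 2 was again the highest, with a difference of 0.70 (limma adjusted p = 0.279). Cyp2e1, a cytochrome P450, had a difference of 0.90 (limma adjusted p = 0.263) at 1.27 to 5.08 TPM. Of the 4 genes known from the +4 position, Hopx and Bmi1 did not overlap, with Mtg16-/- higher (9.94% of all), and Tert and Lrig1 did. Bmi1, a Polycomb protein, had 8.53, 8.49 and 9.36 TPM in WT and 13.5 and 14.4 TPM in Mtg16-/- replicates 2 and 3, with the lowest Mtg16-/- library still above WT, a difference of 0.47 (limma adjusted p = 0.297).

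The pathways that keep these cells were read from lists of 21 Wnt and R-spondin genes and 9 Notch genes. Of 18 tested Wnt and R-spondin genes, 0 were called in either direction, 11 had a higher and 7 a lower mean in Mtg16-/-, and the median difference was 0.17. A limma unadjusted p under 0.05 was found for 5 of them, all higher (14.6% of all tested genes had such a p). Lgr4 is among these 5 and was already counted with the relatives of the markers. The groups did not overlap for 5 genes with Mtg16-/- higher (9.94% of all) and for 1 with Mtg16-/- lower. The lower gene was Lrp5, with a difference of -0.29 (limma adjusted p = 0.343). Myc, a growth-promoting transcription factor and Wnt target, had 32.6, 44.8 and 57.2 TPM in WT and 73.9, 105.5 and 87.2 TPM in Mtg16-/-, a difference of 0.99 (limma adjusted p = 0.224). Of 8 tested Notch genes, 0 were called, 5 had a higher and 3 a lower mean, and the median difference was 0.12. Hes1, the repressor that Notch induces, had 37.6, 48.2 and 52.6 TPM in WT and 51.2, 64.9 and 71.9 TPM in Mtg16-/-, with overlap between the groups and a difference of 0.43 (limma adjusted p = 0.321).

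The annotation (GENCODE M21, GRCm38) places another gene across part of Lgr5, Olfm4, Smoc2, Tnfrsf19, Msi1, Prom1 and Hopx. For Lgr5, Smoc2, Tnfrsf19, Msi1, Prom1 and Hopx 1 such gene lies on the opposite strand. The strand setting of the quantification is not given in the sources used here, so reads of the partners could have been counted together. A930009A15Rik, across from Lgr5, had at most 0.22 TPM in any library, and 4930474M22Rik, across from Smoc2, was listed at 0.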

How the data were processed

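Libraries were made from total RNA after ribosomal RNA depletion. The authors ran RSEM on each library, and the deposited values are its TPM. The submitters' processing notes name cutadapt 1.9.1, STAR 2.5.2a, RSEM 1.3.0, DESeq2 1.12.3 and the mm10 build. TPM holds no counts, so depth is unknown and no count model was used. Here log2(TPM + 1) was tested for 12268 genes, those averaging 1 TPM or more over the 6 libraries, with limma 3.58.1 in R 4.3.3 (lmFit, eBayes with an intensity trend, all 6 libraries, no covariates), with Benjamini-Hochberg adjustment over all tested genes and calls at an adjusted p under 0.1. Differences are Mtg16-/- minus WT, and this scale understates the change of low genes. Ratios were computed in Python 3.11.15, with an exact permutation test of each on the log2 scale. The fit was tested on simulated libraries. Animals are numbered 1 to 3 within each genotype, and the labels do not say that equal numbers were handled together, so no pairing was used. Nothing states that mice shared a litter or cage, and p-values measure the spread between these libraries.

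The members and companion lists were chosen with earlier results of these data known. Named genes were the 10 members, their relatives, in each companion list the called genes or, where none was called, the 2 with the largest absolute difference (not all are printed), and the 3 genes with the highest r to Lgr5, Ascl2 and Olfm4. Alternatives were a pseudocount of 0.1, no filter, a mean TPM of at least 5, 3 rescalings, 3 forms of moderation or weighting, a replicate block, each library left out, and an adjusted p under 0.05. Gene positions and promoters come from RefSeq GRCm38.p6, and overlapping genes from GENCODE M21.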

Additional observations from a re-analysis of the deposited data

How the results depend on the processing

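The count of called genes over all tested genes, 4, became 0 with no filter, with median-ratio rescaling, without an intensity trend and at an adjusted p under 0.05, 1 with quantile normalization and with rescaling to the epithelial markers, 15 at a mean TPM of at least 5, 20 with robust moderation and 855 with array weights. It ranged from 0 (without Mtg16-/- replicate 3) to 40 (without WT replicate 1) with 1 library left out. The count of members called was 0 in each of these except 3 with array weights, which gave WT replicate 1 the lowest weight, 0.32. The companion lists had 0 called genes in the main test, 2 at a mean TPM of at least 5, 2 with robust moderation, 25 with array weights, and 0 to 1 with 1 library left out. The cause of these changes was not tested.

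Over 159 refits of single members, 149 kept direction and side of the threshold, 7 passed it and 3 changed sign. The sign changes were in Msi1, which ranged from -0.42 to 0.080 with 1 library left out and was 0.049 without WT replicate 3, and in Rgmb, which ranged from -0.046 to 0.22. At a mean TPM of at least 5 Tnfrsf19 was not tested. No scaling moved the median of all genes by over 0.1.

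Same-numbered libraries had correlations of their deviations from the group means of 0.429, 0.0753 and 0.237, so 1 of the 3 pairs was under the limit of 0.1. Pairs with unlike numbers had correlations from -0.331 to 0.198. Whether mice of equal number were handled together is not stated. Of the 6 libraries, 2 in WT and 3 in Mtg16-/- correlated best with their own number. With the replicate block 1201 of the 12268 tested genes were called, and 39 genes of the companion lists. So were 4 members (Lgr5, Olfm4, Hopx and Cdca7, limma adjusted p = 0.0512, 0.0572, 0.0534 and 0.0824). The depth of the libraries is unknown, so its part in these values could not be measured.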
